A study of Homo sapiens with 32 samples.

Results

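TNF and 9 feedback genes of the NF-kB pathway were described across the 8 groups of the series. The 10 genes were TNF, TNFAIP3, NFKBIA, NFKBIZ, NFKB1, NFKB2, RELB, REL, BIRC3 and TRAF1, each found by its symbol as a single row among the 60107 genes in the tables. All 10 were among the 12406 genes with a mean deposited count of at least 10, which were the genes tested. RNA of THP-1 cells, a human monocytic leukemia line, had been sequenced as 32 libraries, 4 in each group, with a kit that reads the 3′ end of transcripts, so that counts do not scale with gene length.

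The 4 lines differed in ATP-citrate lyase (ACLY), the enzyme that makes acetyl-CoA from citrate. KO cells lack ACLY. WT, HA and SA cells were ACLY knockout cells transduced with lentivirus and selected with puromycin, carrying wild-type ACLY, catalytically inactive H760A ACLY or phosphorylation-deficient S455A ACLY. Each line was left unstimulated or given LPS, a cell wall component of Gram-negative bacteria, at 100 ng/ml for 3 hours. The labels and the paper's figure legend for these sequencing data give this concentration, while the general methods give a lower one. All 4 lines thus share the knockout of the endogenous gene, 1 line stands for each genotype, and the sources used here do not say whether the KO cells went through transduction and selection. Genotype, transduction and other differences between the lines therefore cannot be told apart.

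LPS binds TLR4 on monocytes, which leads to activation of the IκB kinase complex and release of NF-κB dimers into the nucleus. NF-κB then raises the transcription of cytokines such as TNF and of its own regulators. Of the genes described here, NFKBIA encodes IκBα, which holds NF-κB in the cytoplasm, TNFAIP3 encodes the ubiquitin-editing enzyme A20 that ends receptor signaling, and NFKBIZ encodes IκBζ, a nuclear IκB protein needed for a set of secondary response genes. NFKB1 and NFKB2 encode the precursors of p50 and p52, and RELB and REL encode Rel subunits with a transactivation domain. BIRC3 encodes cIAP2, a ubiquitin ligase of the TNF receptor complex, and TRAF1 is an adaptor that binds cIAP proteins at TNF receptor family members.

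The sequence just before the transcription start is shown for TNF, the ligand, and for NFKBIA and BIRC3, as the windows that did not reach into an annotated exon among the genes whose values are described most fully. The RefSeq promoter table (GRCh38.p14) held 15 windows for 9 of the 10 genes and none for RELB. In the 250 bases before the start, the 10-base NF-κB consensus, searched on both strands with overlapping matches counted, was present in 9 of these 15 windows and in windows of 7 of the 9 genes. Among all 35116 windows of this length, 3498 (9.96%) held it, and by gene 3221 of 27305 (11.8%) did. Capitals mark the matches. A match to these letters is a description of sequence and not evidence of binding.

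TNF, chr6:31575315-31575564, plus strand, no match: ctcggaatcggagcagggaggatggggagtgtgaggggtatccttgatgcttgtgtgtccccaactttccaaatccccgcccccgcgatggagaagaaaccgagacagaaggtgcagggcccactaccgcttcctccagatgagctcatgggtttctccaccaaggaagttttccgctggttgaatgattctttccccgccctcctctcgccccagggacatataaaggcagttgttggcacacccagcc
NFKBIA, chr14:35404750-35404999, minus strand: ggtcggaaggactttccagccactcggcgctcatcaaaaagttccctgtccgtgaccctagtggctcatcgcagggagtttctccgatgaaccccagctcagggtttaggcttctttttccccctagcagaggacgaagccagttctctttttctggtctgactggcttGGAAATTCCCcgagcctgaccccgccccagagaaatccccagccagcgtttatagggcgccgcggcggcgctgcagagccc
BIRC3, chr11:102317234-102317483, plus strand: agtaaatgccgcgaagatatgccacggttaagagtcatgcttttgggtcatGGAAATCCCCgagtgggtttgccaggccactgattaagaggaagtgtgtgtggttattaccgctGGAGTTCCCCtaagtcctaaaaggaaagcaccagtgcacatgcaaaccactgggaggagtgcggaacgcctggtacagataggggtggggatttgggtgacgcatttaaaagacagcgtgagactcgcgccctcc

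The BIRC3 window held 2 matches and the NFKBIA window 1. Of the other members, only the matching letters are shown, to compare the sites. TNFAIP3 had a pair of matches 2 bases apart, at chr6:137867192-137867213 on the plus strand.
TNFAIP3: GGAAAGTCCCgtGGAAATCCCC
NFKBIZ, first window: GGGAATTTCC
NFKBIZ, second window: GGGGTTTCCC
NFKB1: GGGAATTTCC
REL: GGGAAATTCCC
The sites of NFKBIZ (first window, chr3:101827767-101827776) and NFKB1 (chr4:102501310-102501319) had the same 10 letters, and the 11 bases of REL (chr2:60881527-60881537) held 2 overlapping matches. The windows of TRAF1 had no match, and 2 of the 3 windows of NFKB2 had matches.

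Between 6504099 and 14750815 reads per library fell on genes (median 10247620). Values are normalised counts, that is, reads divided by size factors computed over all 32 libraries, since the deposited values had been scaled within each line. The 11 monocytic markers checked, among them CD33, CSF1R and TYROBP, all had a mean count of at least 10. The T cell marker CD3E and the fibroblast marker COL1A2 were at 0 in every group. The ACLY count was 102 ± 11.4 (SD, n = 4) in WT and 88.5 ± 17.4 in KO without LPS and 109.9 ± 12.8 and 76.7 ± 17.0 with LPS, and the libraries of these 2 lines overlapped in both conditions. HA and SA were at 96.7 ± 28.9 and 142.7 ± 27.8 without LPS and 71.9 ± 12.4 and 159 ± 114 with LPS. With LPS, all HA libraries lay below all WT libraries (log2 change -0.61, limma adjusted p = 2.66e-01), as for 791 of 12406 genes, and SA library 1 stood at 329. A 3′ count does not show whether a transcript carries an edited or introduced coding sequence, so it does not check the labels. In each group 1 library stood farthest from its group mean over all genes tested (number 3 in the WT and KO groups, number 1 in the HA and SA groups, with and without LPS). The SD of its log2 deviations was 0.506 to 0.817 in 7 groups and 1.378 in SA with LPS, against 0.273 to 0.528 for the other 24 libraries. Values in SA with LPS that moved most without its library 1 are given with and without it, and calls also without all 8 libraries. Fewer responding cells and less RNA per cell cannot be told apart in these bulk samples.

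**Figure D1:**
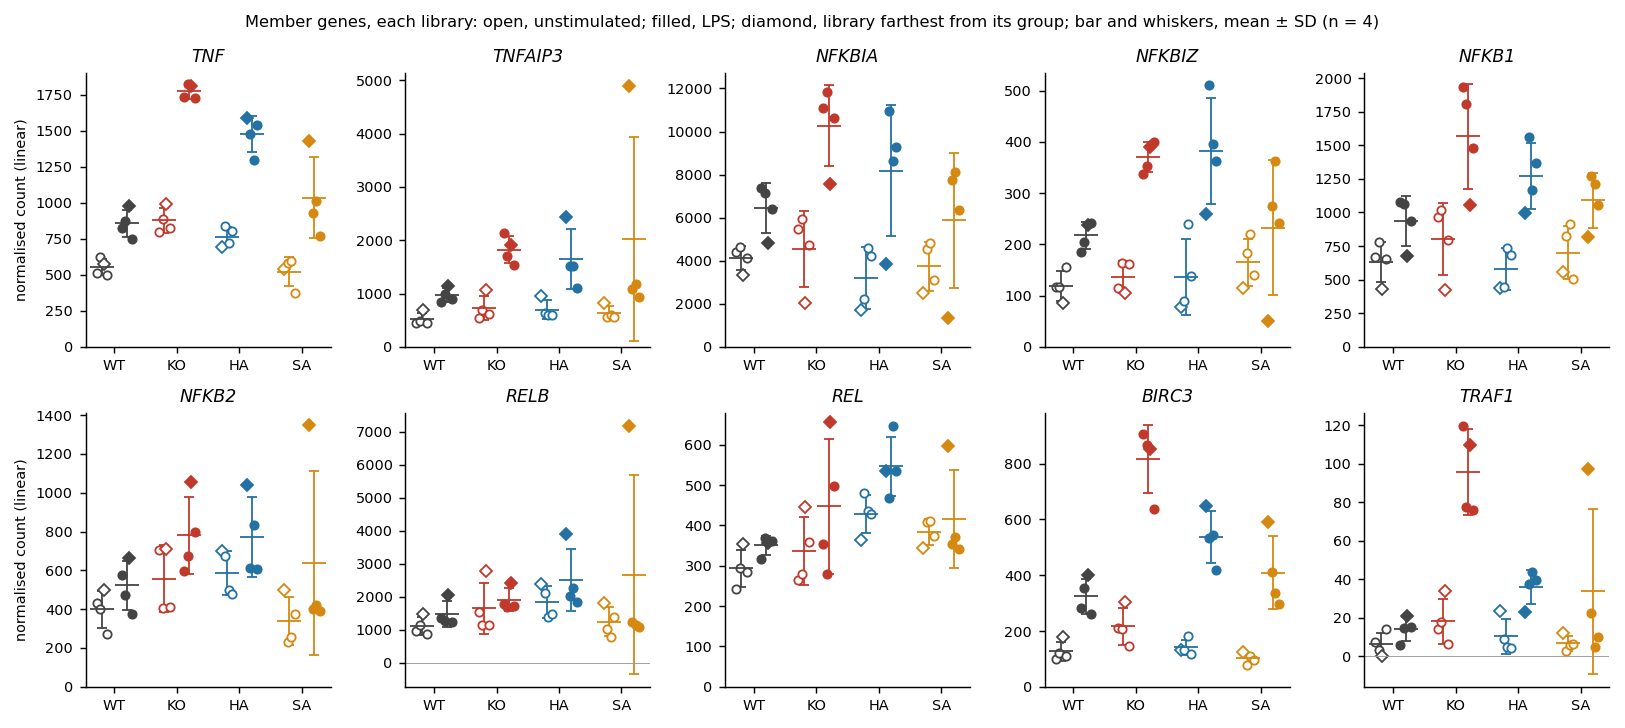
Normalised count (linear axis) of the 10 genes in each of the 32 libraries, by line. Open symbols are unstimulated and filled symbols LPS-treated libraries, diamonds mark the library of each group farthest from its group over all genes, and bars with whiskers give the mean ± SD of 4 libraries. TNF and BIRC3 are higher in all LPS libraries of a line than in its unstimulated libraries, and the SA library number 1 with LPS stands at 7180 for RELB while the other 3 are at 1094 to 1239.

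TNF rose after LPS in KO, HA and SA cells and was 1.55-fold higher in WT cells, where the change did not pass the test. Without LPS, the 4 libraries had TNF counts of 515, 623, 572 and 501 in WT, 800.1, 889, 995 and 826 in KO, 690.3, 838, 719 and 805 in HA, and 538, 584, 596 and 373 in SA. All KO and HA libraries lay above all WT libraries before any stimulation, and SA and WT libraries overlapped. With LPS, the counts were 825, 875, 979 and 750.4 in WT, 1736, 1827, 1813 and 1727 in KO, 1587, 1477, 1299 and 1543 in HA, and 1431, 932, 1014 and 770.4 in SA. The LPS libraries lay above the unstimulated libraries of the same line in all 4 lines, and the lowest KO library with LPS was above the highest library of every other group. TNF is encoded on chromosome 6 of GRCh38 from 31575565 to 31578336 (ENSG00000232810). The log2 change with LPS was 0.63 (SE 0.15) in WT, with a limma adjusted p of 6.58e-02, against 1.02 in KO (adjusted p = 1.03e-04), 0.95 in HA (3.33e-04) and 0.97 in SA (2.54e-04), each with the same SE. With only the compared groups in the fit, the TNF call was lost in KO (1.15e-02) and in SA (4.40e-01).

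BIRC3, the cIAP2 gene, was the only member that passed the test for LPS in every line. Unstimulated counts were 98.8, 119.7, 178 and 111 in WT, 212, 206, 304 and 144 in KO, 132, 133, 182 and 119 in HA, and 124, 77.7, 109 and 96.2 in SA. The KO libraries ran from within the WT range to above it, and the HA and SA libraries overlapped the WT ones. With LPS, counts were 283, 353, 399.8 and 261 in WT, 907, 868, 853 and 636 in KO, 649.6, 533, 545 and 419 in HA, and 593, 412, 337 and 298 in SA. Every LPS library was above every unstimulated library of its line, and all KO and HA libraries with LPS were above all WT libraries with LPS. BIRC3 (ENSG00000023445, chromosome 11, 102317484 to 102339403) changed by a log2 of 1.36 in WT (2.57-fold, SE 0.23, limma adjusted p = 1.80e-03), 1.94 in KO (3.85-fold, 3.14e-06), 1.92 in HA (3.77-fold, 5.74e-06) and 1.97 in SA (3.91-fold, 2.45e-06). The call in WT was lost without unstimulated WT library 1 (log2 change 1.25, adjusted p = 1.76e-02), WT LPS library 2 (1.31, 1.16e-02) or WT LPS library 3 (1.25, 1.39e-02). With only the compared groups in the fit it was lost in WT (3.13e-02) and in SA (2.82e-02).

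For the LPS response, 1 of the 10 members passed an adjusted p of 0.01 in WT (BIRC3) and 2 in each of KO, HA and SA (TNF and BIRC3), all higher. Over all genes tested, 0.25% were called higher in WT, 0.508% in KO, 0.387% in HA and 0.468% in SA. All 10 members had a positive log2 change in WT, KO and HA. In SA all 10 did so only with library 1 of the LPS group, without which REL was at -0.11 and RELB at -0.04, and NFKBIZ in SA fell below 0 without SA LPS library 3. The median over the members was 0.63 in WT, 1.15 in KO, 1.18 in HA and 0.71 in SA, while the median over all genes tested was -0.01, 0.02, 0.00 and -0.02. In addition, the 4 LPS libraries lay above the 4 unstimulated ones for 5 members in WT, 7 in KO, 5 in HA and 3 in SA, against 1.77%, 1.95%, 1.99% and 2.11% of the genes tested.

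**Figure D2:**
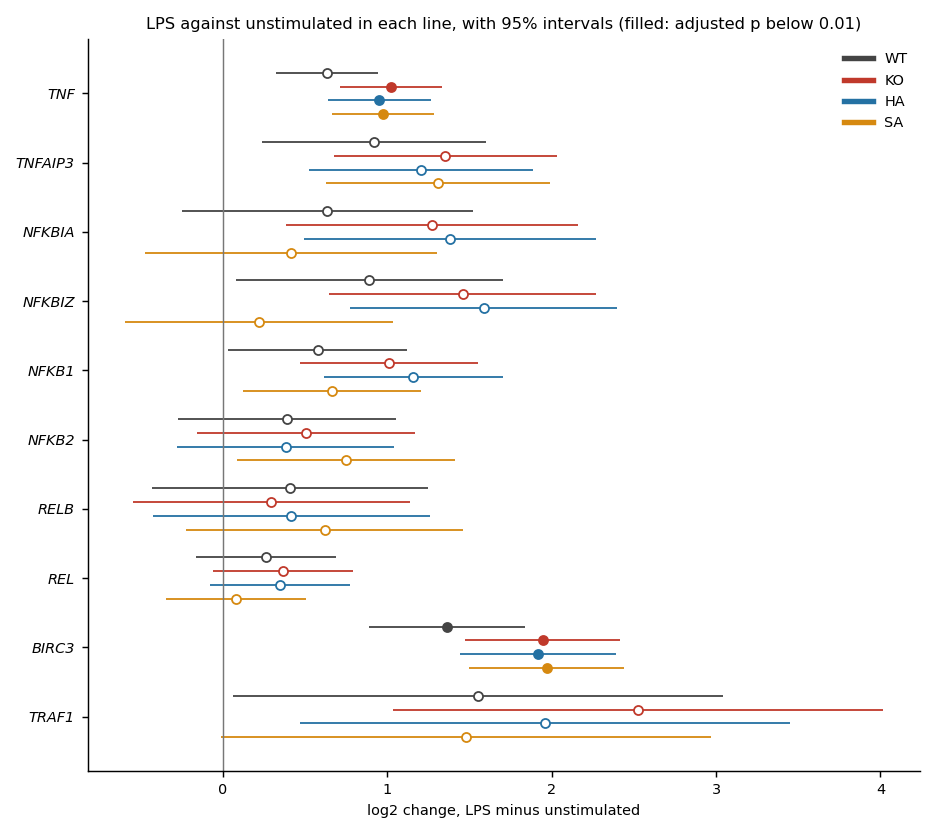
Log2 change with LPS (horizontal axis) of each member in the 4 lines, with 95% intervals from the limma fit over 32 libraries. Filled points have an adjusted p below 0.01, which are TNF in KO, HA and SA and BIRC3 in all 4 lines, and all 40 points lie to the right of 0, though REL and RELB in SA do so only through SA LPS library 1 (-0.11 and -0.04 without it).

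The inhibitors of the pathway were higher with LPS in most libraries, with a wide spread between libraries. TNFAIP3, the A20 gene, had means of 517 ± 116 (SD, n = 4) without and 967 ± 129 with LPS in WT, 732 ± 229 and 1824 ± 256 in KO, 700.2 ± 174 and 1646 ± 561 in HA, and 635 ± 122 and 2020.4 ± 1919 in SA. Its LPS libraries did not overlap the unstimulated ones in any line. The log2 changes were 0.92, 1.35, 1.20 and 1.31 in WT, KO, HA and SA (SE 0.33), with limma adjusted p of 1.00, 3.89e-02, 1.40e-01 and 6.04e-02. In SA with LPS, library 1 stood at 4895 and the other 3 at 935 to 1170, and without it the change in SA was 0.75.

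NFKBIA, the IκBα gene, ran from 3325 to 4646 in unstimulated WT libraries and from 4832 to 7382 with LPS. Without and with LPS, KO libraries spanned 2026 to 5958 and 7544 to 11832. HA libraries spanned 1698 to 4584 and 3846 to 10939.9, and SA libraries 2489 to 4828 and 1333 to 8112. The groups of WT and KO did not overlap, while those of HA and SA did. Log2 changes of 0.64, 1.27, 1.38 and 0.41 in WT, KO, HA and SA had an SE of 0.43, and none passed the test (smallest limma adjusted p = 2.93e-01, in HA). Without SA LPS library 1, at 1333 against 6333 to 8112 in the other 3, the change in SA was 1.03 (adjusted p = 3.51e-01).

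NFKBIZ, the IκBζ gene, had means of 119 ± 28.9 and 217 ± 26.6 in WT without and with LPS, 136 ± 30.8 and 369.7 ± 29.5 in KO, 136 ± 74.5 and 382 ± 104 in HA, and 165 ± 46.0 and 232 ± 132 in SA (SD, n = 4). The WT, KO and HA groups did not overlap with and without LPS. The SA groups did, since SA LPS library 1 was at 49.8 and the other 3 at 241 to 362. The log2 change was 0.89 in WT, 1.46 in KO, 1.58 in HA and 0.22 in SA (SE 0.40, smallest limma adjusted p = 6.44e-02, in HA), and 0.85 in SA without SA LPS library 1.

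None of the 4 NF-κB subunit genes passed the test for LPS in the fit across all 32 libraries. NFKB1, which encodes the p50 precursor, had log2 changes of 0.58 in WT, 1.01 in KO, 1.16 in HA and 0.66 in SA (SE 0.27, smallest limma adjusted p = 2.96e-02, in HA). Its unstimulated KO libraries ran from 423 to 1018 and those with LPS from 1059 to 1936. NFKB2 had log2 changes of 0.38 to 0.75 over the lines, RELB of 0.29 to 0.62 and REL of 0.08 to 0.36. The SA values of 0.75, 0.62 and 0.08 rested on SA LPS library 1 and were 0.31, -0.04 and -0.11 without it. The LPS and unstimulated libraries of these 3 genes overlapped in every line. RelB pairs with p52, the product of NFKB2.

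TRAF1 was a low-count gene, with 0 to 101 reads per library. Unstimulated counts were 7.16, 3.35, 0 and 14 in WT and 14.1, 18.0, 33.8 and 6.44 in KO, where the 0 reads allow, at 3 reads, a count of up to 3.36 by counting error alone. With LPS, the counts were 5.99, 14.7, 21.1 and 15.1 in WT, 119.8, 77.3, 110.0 and 76.0 in KO, 23.2, 37.5, 43.6 and 39.4 in HA, and 97.2, 22.5, 4.64 and 10.3 in SA. KO libraries with LPS lay above all WT and HA libraries with LPS, and in SA only library 1 reached the KO range. The log2 change with LPS was 2.52 in KO (SE 0.73, limma adjusted p = 1.35e-01), while WT had 1.55, HA 1.96 and SA 1.48, on the log2(count + 1) scale, which understates changes of low counts. Without SA LPS library 1 the SA value was 0.70, and with the 8 farthest libraries left out the WT value was 0.58.

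The replicate numbers were taken to pair the WT and KO groups, by the correlations described below. With the number as a block and only the compared groups in the fit, more members passed. In WT, 7 members were then called (BIRC3, NFKBIA, TNFAIP3, TNF, NFKB1, NFKBIZ and RELB, limma adjusted p from 1.00e-07 to 2.24e-03), against 0.943% of all genes. In KO, 7 were called (BIRC3, TNF, NFKBIZ, TNFAIP3, NFKBIA, NFKB1 and TRAF1, adjusted p from 3.75e-05 to 1.94e-03), against 0.854% of all genes. The log2 changes are those given above, and the blocked SE of TNF was 0.08 in WT and 0.11 in KO. In WT and KO, each member called without the block was still called. In SA, where numbers were not taken to pair, TNF and BIRC3 lost their calls with the block.

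With the 8 farthest libraries left out, a choice made after seeing the data, 2 members passed in WT (BIRC3 and TNFAIP3), 7 in KO and 7 in HA (in both lines all but NFKB2, RELB and REL), and 3 in SA (BIRC3, TNF and TNFAIP3). Of all genes, 0.363%, 0.798%, 0.629% and 0.572% were called higher in these fits. Without SA LPS library 1 alone, TNFAIP3 and NFKBIZ passed in KO and HA next to TNF and BIRC3 (limma adjusted p of 2.08e-04 and 1.89e-03 in KO, 1.28e-03 and 7.64e-04 in HA), with log2 changes as above, since this library enters those comparisons only through the shared spread. The other single libraries whose omission changed these calls are the 3 named for BIRC3 and unstimulated KO library 3, without which NFKB1 passed in HA (8.84e-03).

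Among 59 other genes of the pathway, grouped into 6 lists, 56 were tested. With LPS, 1 rose in WT, 7 in KO, 4 in HA and 4 in SA, and none fell, where 0.25%, 0.508%, 0.387% and 0.468% of all genes were called higher. TNFSF10, which encodes the death receptor ligand TRAIL, rose in all 4 lines, by a log2 of 1.74 in WT, 1.94 in KO, 1.89 in HA and 2.32 in SA (largest limma adjusted p = 2.33e-06). By list, 2 of 9 ligands and receptors rose in KO (TNFSF15, from 7.40 ± 6.93 to 92.9 ± 34.0, besides TNFSF10), and TNFSF10 alone in the other lines. Of 5 genes for RELA and other IκB proteins, 1 rose in KO and 1 in HA, in both lines BCL3 (1.30 and 0.94). Of 13 brakes on the pathway, 1 rose in KO and 1 in HA, in both lines ZC3H12A, an RNase of inflammatory transcripts (1.45 and 1.28). In KO, BCL3 and ZC3H12A were outside the 4 largest changes and were named after their values were seen.

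Of 10 other well-known targets tested, 3 rose in KO, among them the adhesion molecule ICAM1 (1.65) and TNFAIP2 (1.53). IER3 rose in HA (1.73), and in SA 3 rose (ICAM1 1.71, TNFAIP2 1.32, TNFAIP8 1.19). None of 9 receptor-proximal adaptors and ubiquitin ligases and none of 10 kinases and their adaptors passed in any line. RELA, the gene of the main partner of p50, had log2 changes of 0.05 in WT, -0.07 in KO, -0.08 in HA and -0.15 in SA (SE 0.22), none past the test. The median over the 56 genes was 0.18, 0.26, 0.29 and 0.20 in WT, KO, HA and SA.

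The next comparisons asked how the lines without catalytically active ACLY differed from WT cells. In unstimulated cells, TNF was 1.59-fold higher in KO than in WT, with 878 ± 86.6 against 553 ± 56.1 (SD, n = 4), and this was the only member called (log2 change 0.67, SE 0.15, limma adjusted p = 5.86e-03). Of all genes, 1.80% were called higher in KO. In HA, TNF was at 763 ± 69.5, a log2 change of 0.47 (adjusted p = 6.01e-02), and no member was called, against 1.42% of genes called higher. All 4 libraries lay above all WT libraries for 1 member in KO (TNF), against 5.90% of genes, and for 2 in HA (TNF and REL), against 9% of genes. The member median of the log2 change was 0.47 in KO and 0.45 in HA, beside -0.03 and -0.02 over all genes.

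The TNF call in unstimulated KO cells was near the limit. It was lost without WT library 1, 3 or 4 or KO library 2, 3 or 4, with log2 changes of 0.60 to 0.69 and adjusted p from 1.11e-02 to 2.92e-02. It was kept with the replicate block (adjusted p = 1.56e-03, 3.33% of genes called higher) and with the 8 farthest libraries left out (7.25e-03, 2.92%). In HA, TNF, REL and RELB passed with those 8 libraries left out (log2 changes 0.53, 0.71 and 0.74), where 6.47% of genes were called higher. On the deposited scale, which shifts a typical gene by -0.10 in KO and 0.15 in HA against WT, the TNF change was 0.57 in KO (adjusted p = 2.02e-02) and 0.61 in HA (9.41e-03).

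After LPS, TNF and BIRC3 were higher in KO than in WT and TNF was higher in HA than in WT. TNF averaged 1776 ± 51.4 in KO and 1477 ± 126 in HA against 857 ± 95.9 in WT (SD, n = 4), which are log2 changes of 1.06 (2.08-fold, limma adjusted p = 1.92e-05) and 0.79 (1.72-fold, 1.54e-03). BIRC3 averaged 816 ± 122 in KO and 537 ± 94.2 in HA against 324 ± 64.0 in WT, with log2 changes of 1.34 (2.53-fold, 2.33e-04) and 0.73 (1.66-fold, 7.54e-02). The 2 members called in KO and the 1 called in HA compare with 2.14% and 1.16% of all genes called higher. The call of TNF in HA was lost without WT LPS library 4 (log2 change 0.72, adjusted p = 1.09e-02).

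TRAF1 had the largest fitted change among the members in KO after LPS, 95.8 ± 22.5 against 14.2 ± 6.22 in WT (log2 change 2.75, SE 0.73), without passing (limma adjusted p = 1.76e-02). It passed with a pseudocount of 8 (1.20e-03), with voom weights on the reads (2.77e-03), without SA LPS library 1 (4.54e-03) and without unstimulated WT library 3 (7.09e-03). TNFAIP3 had a log2 change of 0.91 (adjusted p = 1.13e-01) and passed without SA LPS library 1 (4.77e-03). The 4 KO libraries with LPS lay above the 4 WT libraries for 6 members (TNF, TNFAIP3, NFKBIA, NFKBIZ, BIRC3 and TRAF1), against 6.73% of genes, and those of HA for 5 (TNF, NFKBIZ, REL, BIRC3 and TRAF1), against 7.09%. REL, a subunit active in leukocytes, ran from 468 to 647 in HA and from 316 to 369 in WT with LPS, and its log2 change of 0.63 had an adjusted p of 8.98e-02.

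With the replicate number as a block, 8 members were called higher in KO after LPS, all but NFKB2 and REL (limma adjusted p from 5.24e-06 to 7.84e-03), where 6.26% of all genes were called higher. With the 8 farthest libraries left out, 5 members were called in KO (TNF, BIRC3, TNFAIP3, TRAF1 and NFKB1), against 3.92% of genes, and 2 in HA (TNF and TNFAIP3), against 2.38%. All 10 members had positive log2 changes in both KO and HA after LPS, with medians of 0.75 and 0.72, and the medians of all genes were -0.01 and -0.03. KO and HA were compared with the same WT libraries, so these values are not independent of each other.

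**Figure D3:**
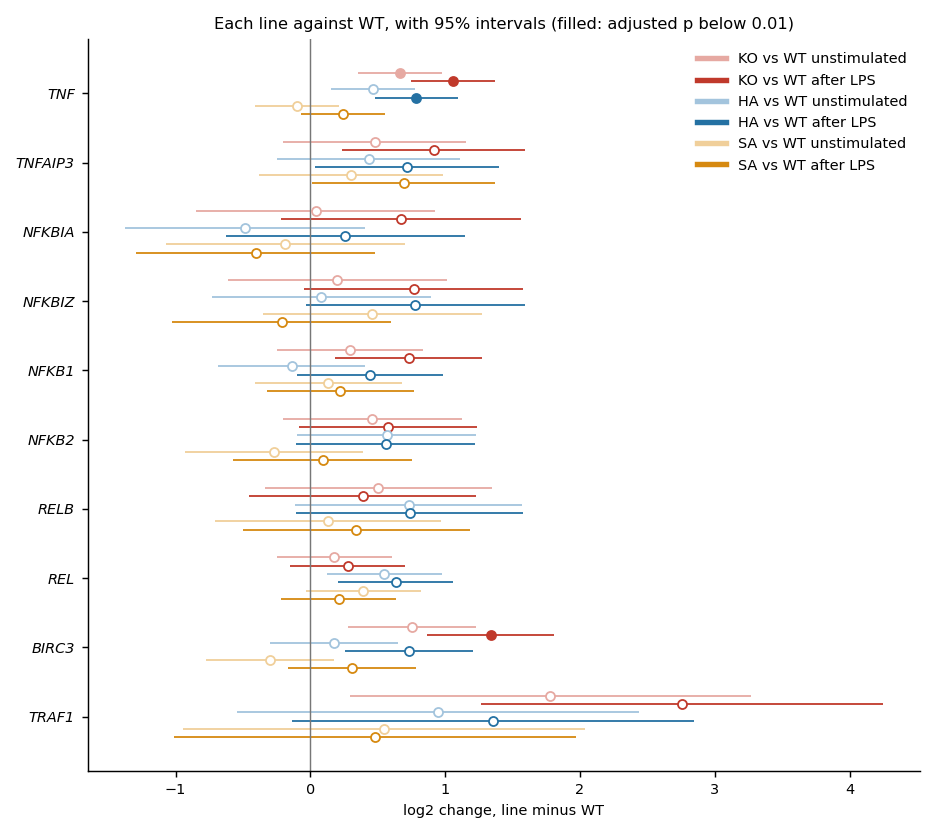
Log2 change of each member in KO, HA and SA against WT (horizontal axis), without LPS (pale) and after LPS (dark), with 95% intervals from the limma fit over 32 libraries. The 4 filled points have an adjusted p below 0.01 and are TNF in KO with and without LPS, TNF in HA after LPS and BIRC3 in KO after LPS, while the intervals of SA include 0 except for TNFAIP3 after LPS (0.01 to 1.37).

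Of the other pathway genes, 2 of 56 rose in KO without LPS (TNFSF10 and TNFAIP8) and 1 in HA (TNFSF10). Of all genes, 1.80% and 1.42% were called higher, so that both counts are near the background. After LPS, 8 were higher and 1 lower in KO, and 2 were higher in HA (TNFSF10 and CFLAR), where 2.14% and 1.16% of all genes were called higher. TNFSF10 was at 2573 ± 565 in KO and 1389.5 ± 217 in HA against 438 ± 43.1 in WT after LPS. Among the called genes, the largest change in KO was that of TNIP3, an A20-binding protein, with 93.0 ± 41.4 against 5.28 ± 0.589 (log2 change 3.76, limma adjusted p = 3.88e-04). Next among the called genes came TNFSF15 (3.66), TNFSF10 (2.53) and TNFAIP8 (1.20), and the gene that was lower, by a log2 of -0.70, was OTULIN, a deubiquitinase of linear chains, named after its value was seen. By list after LPS in KO, 2 of 9 ligands and receptors, 1 of 5 genes for RELA and IκB proteins, 3 of 13 brakes and 2 of 10 other targets were higher. None of the adaptors and kinases passed. RELA had log2 changes of 0.07 in KO and 0.45 in HA after LPS, neither past the test.

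SA cells express ACLY that lacks the serine 455 phosphorylation site, and the comparison with WT asked what that site changes. No member was called, with or without LPS, and of all genes 0% were called in either direction at both conditions. By DESeq2 at the same adjusted p limit, the paper reports CXCL11, IFI44, GBP1, EPSTI1 and IFIT2 as higher in SA after LPS. None of these is a member. Without adjustment, 445 and 646 genes had a p below 0.05 by limma, among them 0 members without LPS and 1 with LPS (TNFAIP3), and voom also called 0 genes. The TNFAIP3 difference after LPS was 0.69 and rested on SA LPS library 1, without which it was 0.14. TNF was at 523 ± 103 in SA and 553 ± 56.1 in WT without LPS (log2 change -0.10, 95% interval -0.41 to 0.21), and at 1037 ± 282 and 857 ± 95.9 with LPS (0.24, -0.07 to 0.55). For BIRC3 the log2 change was -0.30 (-0.77 to 0.17) without and 0.31 (-0.17 to 0.78) with LPS. SA LPS library 1 was above the other SA LPS libraries for TNF (1431 against 770.4 to 1014) and BIRC3 (593 against 298 to 412). On the deposited scale the sign of the TNF change without LPS was positive (0.16), as the typical gene is shifted by 0.27 there. With the 8 farthest libraries left out, RELB and NFKB2 with LPS turned from 0.34 and 0.09 to -0.15 and -0.22, and NFKBIA and NFKBIZ from -0.41 and -0.21 to 0.08 and 0.46, none of them called.

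KO and HA cells both lack ACLY activity, and the difference between them was tested directly. No member was called, with 0.226% of all genes called without LPS and 0.00806% with LPS, in either direction. After LPS, all 4 KO libraries were above all HA libraries for TNF and TRAF1, against 2.66% of all genes. The log2 difference of TNF was 0.27 (95% interval -0.04 to 0.58, limma adjusted p = 5.29e-01) and that of TRAF1 1.40 (-0.09 to 2.89, 4.98e-01). For BIRC3, KO was higher by a log2 of 0.58 without (0.11 to 1.05, 3.96e-01) and 0.61 with LPS (0.13 to 1.08, 3.21e-01).

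Whether LPS changed the members by a different amount than in WT was tested as the difference of the responses. No member was called for KO, HA or SA, where 0.00806%, 0% and 0% of all genes passed. The TNF response exceeded that of WT by a log2 of 0.39 in KO (95% interval -0.05 to 0.83). In HA the excess was 0.32 (-0.12 to 0.76), and for SA it was 0.34 (-0.10 to 0.78). For BIRC3, the differences were 0.58 (-0.09 to 1.25), 0.56 (-0.11 to 1.22) and 0.61 (-0.06 to 1.28). The SA values of both genes were raised by SA LPS library 1, which lay 0.50 (TNF) and 0.58 (BIRC3) above its group mean. With the replicate block, the TNF difference of KO and WT was 0.39 with an SE of 0.12 (limma adjusted p = 4.25e-01). At an unadjusted limma p under 0.05 stood 175 genes for KO, 142 for HA and 457 for SA, no member among them. By voom, 1, 0 and 0 genes passed and no member.

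Across the 8 groups, TNF rose in the order SA, WT, HA, WT with LPS, KO, SA with LPS, HA with LPS and KO with LPS. Neighbours in this order overlapped except WT and HA, and HA with LPS and KO with LPS. BIRC3 had the order SA, WT, HA, KO, WT with LPS, SA with LPS, HA with LPS and KO with LPS, and each neighbour overlapped the next. For TRAF1 the order was WT, SA, HA, WT with LPS, KO, SA with LPS, HA with LPS and KO with LPS, with a gap between the last 2 groups only. KO with LPS had the highest mean for TNF, NFKBIA, NFKB1, NFKB2, BIRC3 and TRAF1, HA with LPS for NFKBIZ and REL, and SA with LPS for TNFAIP3 and RELB, where library 1 set the mean. For the 7 members other than TNF, BIRC3 and TRAF1, every neighbouring pair of groups overlapped.

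The members differed in how they behaved in the library farthest from its group. RELB and NFKB2 were highest in that library in all 8 groups and NFKBIA was lowest in all 8, while NFKB1 was lowest in 7, NFKBIZ lowest in 6, TNFAIP3 highest in 7 and BIRC3 highest in 6. Over all genes tested, 5.12% were highest and 7.76% lowest in the farthest library of all 8 groups. RELB lay 0.37 to 1.98 above its group mean on the log2 scale in these libraries and NFKBIA 0.30 to 1.85 below. TNF was highest in 4 groups and lowest in 1, with deviations of -0.14 to 0.50. The share of mitochondrial reads was 4.94 to 7.95% in the 8 libraries and 3.32 to 8.36% in the others, and what set these libraries apart was not tested.

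**Figure D4:**
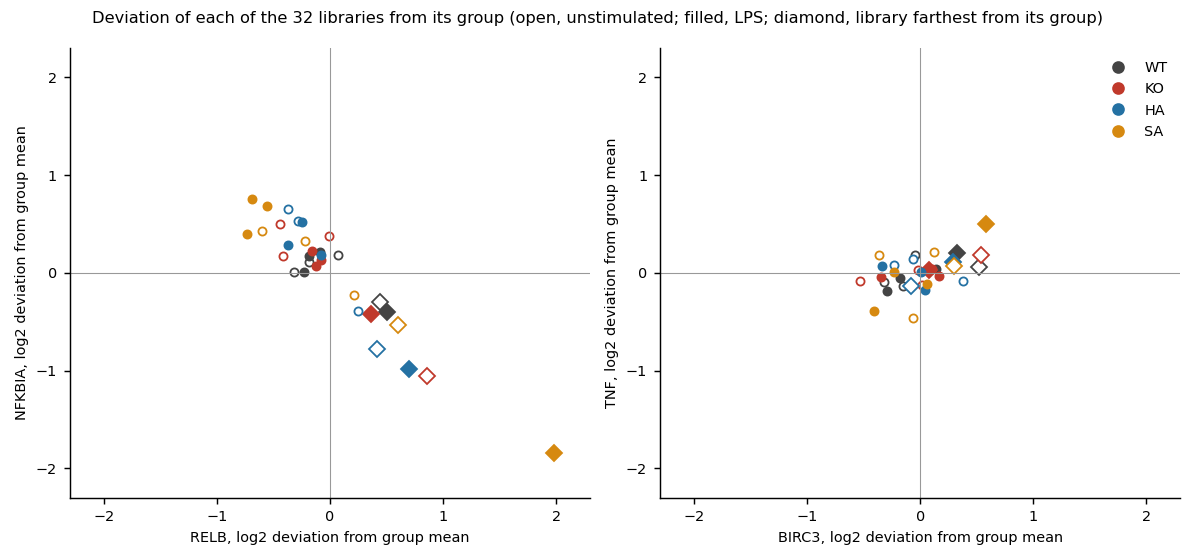
Log2 deviation of each of the 32 libraries from its group mean, for RELB against NFKBIA (left) and BIRC3 against TNF (right). Open symbols are unstimulated, filled symbols LPS-treated, and diamonds mark the farthest library of each group. In the left panel the 8 diamonds have RELB at 0.37 to 1.98 and NFKBIA at -1.85 to -0.30, and in the right panel TNF stays within -0.46 and 0.50.

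By Pearson's r over the 8 group means of log2(count + 1), a description over 8 points, the tested genes most like TNF were the chemokine gene CCL3 (r = 0.995), MTF1 (0.991) and PLAGL2 (0.989). Those most like BIRC3 were the chemokine gene CXCL9 (0.996), ICAM1 (0.993) and the chemokine gene CCL4 (0.992). NFKBIA was most like GBE1 (0.979), SLC16A9 (0.966) and PLAC8 (0.965), and NFKB2 was most like CACNA1A (0.988), CD46 (0.981) and POU2F2 (0.971). Among the 45 pairs of members, r ran from 0.396 for NFKBIA and REL to 0.970 for TNF and TRAF1, with a median of 0.855. All of these values share the same libraries.

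In GENCODE release 44 on GRCh38, the other members lie on chromosome 6 from 137867214 to 137883314 (TNFAIP3), 14 from 35401079 to 35404749 (NFKBIA), 3 from 101827991 to 101861022 (NFKBIZ) and 4 from 102501330 to 102617302 (NFKB1). NFKB2 lies on 10 from 102394110 to 102402524, RELB on 19 from 45001461 to 45038192, REL on 2 from 60881491 to 60931612 and TRAF1 on 9 from 120902393 to 120929173. Exons of TNFAIP3 overlap those of WAKMAR2 on the opposite strand, and exons of BIRC3 those of an unnamed gene on the opposite strand. Exons of NFKBIZ overlap those of NXPE3, and exons of REL those of an unnamed gene, on the same strand. The sources used here do not give the strand setting of the counting, so a neighbour could have added to or taken from the reads of these 4 genes.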

How the data were processed

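RNA of THP-1 cells was sequenced as 32 QuantSeq 3′ libraries (8 groups of 4, from the labels). For the deposited files, the authors used Bbduk for trimming, STAR for alignment (GRCh38), HTSeq-count for counts per gene and DESeq2 for normalisation. Annotation release, versions and strand setting are not given in the sources used here. The deposited values are normalised counts with decimal commas, scaled within each line. Every value above 0 was a whole multiple (within 0.05 reads) of 1 number per library, which gave back the reads. Spike-in rows (92, with 1 read in all) were left out. Reads were divided by median-of-ratios factors over all 32 libraries, computed from 11384 genes.

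A mean deposited count of 10 or more was required (12406 genes). The log2(count + 1) values went into limma (version 3.58.1, R version 4.3.3), with 1 mean per group, eBayes with a trend, and Benjamini-Hochberg adjustment over all genes of each of 15 comparisons, at the authors' limit of 0.01. Intervals are 95% intervals of the same fit. Summaries used Python with pandas and numpy. The steps were tested on simulated data. The full count over markers of other cell types is not reported here. Members and pathway lists were chosen with earlier results of these data known. All 10 members were named, other pathway genes by list counts, with at most 4 called genes of largest change per comparison and RELA. Genes named after their values were seen are stated as such. No copy of a library was found (chi-square per gene of at least 3.514 between any 2). Separate cultures are not stated, so p-values measure the spread between these libraries, which may be technical, and reads are not independent molecules.

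Pairing by replicate number was checked as the correlation over genes of deviations from group means. Every same-numbered pair of the WT and KO groups exceeded 0.1 (0.124 to 0.723), so numbers were taken to pair these groups, while no pair of groups with HA or SA did so throughout. The labels give a replicate number only. Library 3 was the farthest in all the WT and KO groups, and its part in these correlations was not tested. Alternatives were the deposited and TMM scales, pseudocounts of 0.5 and 8, no filter or a mean of 50, the compared groups only, replicate blocks and each library left out. After seeing the data, voom and a fit without the farthest library of each group were added.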

Additional observations from a re-analysis of the deposited data

Results flagged for a closer look

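In 8 of the 80 sets of 4 libraries (10 genes in 8 groups), the highest library lay apart from the other 3 by more than 0.829 of the range, Dixon's 95% value for 4 samples. For independent samples from a normal distribution this happens in about 1 in 20. These are counts on a linear scale and several of the 8 values share 1 library, so the 2 rates cannot be compared. TNFAIP3 stood at 689.9 in unstimulated WT library 3, at 959.8 in unstimulated HA library 1 and at 4895 in SA LPS library 1. RELB stood at 2039 in WT LPS library 3, 2422 in KO LPS library 3 and 7180 in SA LPS library 1. In SA LPS library 1, NFKB2 was at 1351 and REL at 596. Each of these 8 values was in the library farthest from its group over all genes tested. Their effect is given by the fits without these libraries, and their cause was not tested.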

How the results depend on the processing

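Over 43 alternatives and 15 comparisons, 6362 of 6435 recomputed member values kept their side of the threshold, 20 were no longer called and 53 were newly called. The sign changed in 102, none of them called in either fit. Members called after LPS were 1 in WT, 2 in KO, 2 in HA and 2 in SA. With the compared groups only they were 0 in WT, 1 in KO and 0 in SA. Of 12406 genes, 14, 19 and 7 were called higher there. With a replicate block in those groups they were 7 in WT, 7 in KO, 6 in HA and 0 in SA. Here 117, 106, 70 and 3 genes were called higher. With the 8 farthest libraries left out they were 2 in WT, 7 in KO and 7 in HA, beside 45, 99 and 78 genes. Against WT, unstimulated KO had 0 on the deposited scale, with no filter and with the compared groups only. Genes called higher there were 185, 196 (of 27904) and 121. Unstimulated HA had 1 on the deposited scale and 3 with 8 libraries left out, beside 406 and 803 genes. After LPS, KO had 4 with the compared groups only, 8 with the block and 5 with 8 libraries left out. These fits called 207, 777 and 486 genes higher. HA had 0 with the block and 2 with 8 libraries left out after LPS. In HA, only 5 genes were called higher with the block, and 295 with 8 libraries left out. With each single library left out, counts ran from 0 to 1 (WT), 2 to 4 (KO) and 2 to 4 (HA) for the LPS response, from 0 to 1 for unstimulated KO against WT, and after LPS from 2 to 4 for KO and 0 to 1 for HA. The block changed no other member call. Numbers were not taken to pair the HA and SA groups, where the block shares only a number and 2 of 4 libraries with and without LPS correlated best with their own number. Among pairs of WT and KO groups this count ran from 2 (KO with LPS and unstimulated WT) to 4 (such as WT with and without LPS).

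Genes called ran, over the alternatives, from 14 to 126 for LPS in WT (31 in the fit reported), 21 to 121 in KO (72), 33 to 81 in HA (50) and 3 to 72 in SA (61). They ran from 179 to 724 for unstimulated KO against WT (360), 8 to 2188 for HA (313), 300 to 1336 for KO after LPS (430), 7 to 585 for HA after LPS (250), 0 to 1 for unstimulated SA (0), 0 to 1015 for KO against HA (28), 0 to 242 after LPS (1) and 1 to 2 for the KO response (1). On the deposited scale the genes higher and lower were 185 and 184 (reported: 223 and 137) for unstimulated KO, 406 and 97 (176 and 137) for HA, 222 and 253 (265 and 165) for KO after LPS, 280 and 72 (144 and 106) for HA after LPS, 10 and 18 (25 and 3) for KO against HA and 2 and 58 (1 and 0) after LPS. The planned edgeR and DESeq2 count tests were not run. Reads per library limit TRAF1 most, with 0 to 101 reads.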
